A study of Mus musculus with 6 samples.

Results

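The Hox cluster genes are the mouse homeobox transcription factor genes named Hoxa, Hoxb, Hoxc or Hoxd with a number from 1 to 13. The rule that chose them uses gene names and no measured value, and 38 of the 27179 genes in the count table are described here, 10 from the HoxA cluster, 10 from HoxB, 9 from HoxC and 9 from HoxD. RNA-seq was performed on fibroblasts sorted from pubertal mammary glands of FVB/N mice (FVB/NJ in the study's methods) aged 6 weeks, in 3 pools of 2 mice. Stromal cells negative for the lineage markers and for CD24 and positive for Pdgfrα were divided by surface CD34, and each pool gave 1 CD34hi and 1 CD34lo library (3 libraries in each population). CD34 is a surface sialomucin that was used here to separate CD34hi from CD34lo fibroblasts, and no treatment or engineered allele was involved. Because animals were pooled, the spread between libraries is that between pools, and the sources used here do not state which mammary gland pairs were collected.

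Hox genes encode homeodomain proteins that give cells their identity along the head to tail axis and along the limbs. They lie in 4 clusters, and genes at matching positions in different clusters form paralogue groups. Low-numbered groups are active towards the head and high-numbered groups towards the tail, and adult fibroblasts keep a Hox pattern from their site of origin. In the mammary gland, Hoxa9, Hoxb9 and Hoxd9 are jointly needed for growth of the gland in pregnancy.

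In the coordinates of the deposited table (GRCm38/mm10), the HoxA members lay on chromosome 6 between 52162511 and 52260880, the HoxB members on chromosome 11 between 96194361 and 96368253, the HoxC members on chromosome 15 between 102921131 and 103036852, and the HoxD members on chromosome 2 between 74668310 and 74765142. The table gives 1 count per gene and library, with a gene length that excludes introns for genes with several exons. The start regions of the 5 members with higher expression in CD34lo fibroblasts are shown, since these genes were called in the same direction. Each window runs from 250 bases before to 50 bases after the RefSeq gene start on GRCm38.p6, is written 5′ to 3′ on the strand of the gene, and has its CpG dinucleotides in capitals.
Hoxa2: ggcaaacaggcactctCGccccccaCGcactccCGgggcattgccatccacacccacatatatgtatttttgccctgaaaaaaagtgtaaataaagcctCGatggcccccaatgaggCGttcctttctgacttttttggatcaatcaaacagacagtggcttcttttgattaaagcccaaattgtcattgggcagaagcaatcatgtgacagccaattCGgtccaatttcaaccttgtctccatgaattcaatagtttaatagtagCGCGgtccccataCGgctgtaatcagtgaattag
Hoxa3: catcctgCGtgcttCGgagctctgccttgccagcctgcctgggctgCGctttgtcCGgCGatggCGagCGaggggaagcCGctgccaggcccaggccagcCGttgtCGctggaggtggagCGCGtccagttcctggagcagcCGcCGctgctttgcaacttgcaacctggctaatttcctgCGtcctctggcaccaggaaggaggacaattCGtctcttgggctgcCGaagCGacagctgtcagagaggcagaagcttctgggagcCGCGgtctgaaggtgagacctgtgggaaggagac
Hoxa6: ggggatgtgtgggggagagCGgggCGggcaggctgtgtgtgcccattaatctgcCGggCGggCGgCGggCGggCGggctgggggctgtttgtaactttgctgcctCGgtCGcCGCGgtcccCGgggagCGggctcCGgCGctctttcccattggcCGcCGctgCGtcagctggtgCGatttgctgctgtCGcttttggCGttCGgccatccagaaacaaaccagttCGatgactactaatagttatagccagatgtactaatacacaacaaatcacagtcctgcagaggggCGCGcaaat
Hoxd4: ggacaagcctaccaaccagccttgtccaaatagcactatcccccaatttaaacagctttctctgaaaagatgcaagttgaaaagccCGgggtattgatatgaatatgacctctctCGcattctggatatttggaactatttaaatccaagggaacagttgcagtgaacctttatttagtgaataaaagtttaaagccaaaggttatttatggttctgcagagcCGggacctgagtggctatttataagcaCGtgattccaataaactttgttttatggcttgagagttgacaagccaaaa
Hoxd8: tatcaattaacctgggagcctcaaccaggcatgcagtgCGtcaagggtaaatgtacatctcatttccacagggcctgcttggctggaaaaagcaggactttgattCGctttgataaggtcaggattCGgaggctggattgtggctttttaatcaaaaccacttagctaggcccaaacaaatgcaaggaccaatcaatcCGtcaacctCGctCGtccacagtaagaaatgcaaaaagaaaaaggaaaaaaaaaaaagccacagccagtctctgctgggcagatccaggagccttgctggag
The Hoxa2 window is chr6:52164782-52165081 on the minus strand and the Hoxa3 window is chr6:52213018-52213317 on the minus strand. The Hoxa6 window is chr6:52208623-52208922 on the minus strand, the Hoxd4 window is chr2:74721728-74722027 on the plus strand and the Hoxd8 window is chr2:74704365-74704664 on the plus strand. For Hoxa6 and Hoxd8 the RefSeq start lies upstream of the gene start in the count table. The windows differed in CpG content, with 9 CpG in Hoxa2, 20 in Hoxa3, 26 in Hoxa6, 4 in Hoxd4 and 6 in Hoxd8, beside a median of 7 over 32851 mouse windows of the same length. RefSeq windows were held for 22 of the 38 members, in 24 windows with a median of 14.5 CpG.

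Motifs were searched on both strands, and no hits of different motifs overlapped in a member window. The CCAAT box was found in Hoxa2 with 4 hits, in Hoxd4 with 2, and in Hoxa6 and Hoxd8 with 1 each. It was present in 15 of the 24 member windows (62.5%) and in 37.4% of all windows. The TATAAA motif was found in Hoxd4 alone of the 5, in 16.7% of member windows and in 13.6% of all windows. TGATTNAT, a motif bound by Pbx and Hox proteins together, was found once in Hoxa2, in 8.33% of member windows and in 3.22% of all windows. TGACAG, a motif bound by Meis and Pknox proteins, was found once each in Hoxa2 and Hoxa3, in 8.33% of member windows and in 19.2% of all windows. A match is a match of letters and does not show that a factor binds there.

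The libraries held 28764779 to 52402410 counts, so that 3 counts, the limit that a count of 0 allows, correspond to 0.0572 to 0.104 CPM, the counts scaled to the size of the library. These limits cover counting error only. CPM values below also use TMM scaling factors, and levels are compared between genes only as RPKM, the CPM per kilobase of the length given in the table. Cd34 was present at 2571 ± 75.2 CPM in CD34hi and 634 ± 158 CPM in CD34lo libraries (SD, n = 3), and Pdgfra, the marker of the gate, at 754 ± 149 and 1256 ± 197 CPM. Of 6 epithelial markers none differed by edgeR (0 at an unadjusted p under 0.05, 0 by limma-voom and 0 by DESeq2), with a summed level of 31.2 to 37.1 CPM in CD34hi and 26.3 to 37.0 CPM in CD34lo. All 3 pericyte and smooth muscle markers were higher in CD34lo, with a summed level of 64.6 to 93.9 against 6.42 to 8.41 CPM. Both tested keratinocyte markers, of 3 in the list, were higher in CD34hi, with a summed level of 14.3 to 19.9 against 3.60 to 7.12 CPM, and Krt1 was at 0 counts in every library. Of the endothelial markers, Kdr was higher in CD34hi and Pecam1 and Cdh5 were higher in CD34lo (summed 43.1 to 85.6 against 23.4 to 32.5 CPM). Of 2 tested leukocyte markers Cd3e was higher in CD34hi, and 2 of 3 Schwann cell, 2 of 2 erythroid and 1 of 1 tested adipocyte markers were higher in CD34lo, while the 1 tested skeletal muscle marker was not called. Summed levels in CD34hi and CD34lo were 16.3 to 18.4 and 4.40 to 9.17 CPM for leukocytes, 1.10 to 1.37 and at least 3.13 for Schwann cells, 0.855 to 1.01 and 1.99 to 2.78 for erythroid cells, 0.157 to 0.442 and 0.418 to 1.60 for adipocytes, and 0.331 to 0.507 and 0.332 to 0.964 for skeletal muscle. The part of such cells in the Hox values was not tested. In sorted bulk samples, fewer cells expressing a gene and less RNA per cell cannot be told apart.

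The members with the highest levels per length were middle and posterior HoxC genes in both populations. Hoxc8, a thoracic patterning gene, was at 7.95 ± 0.549 RPKM in CD34hi and 7.55 ± 0.370 RPKM in CD34lo libraries (SD, n = 3 here and below). Hoxc10, which acts in lumbar patterning, was at 7.93 ± 1.23 and 7.34 ± 0.939 RPKM. Hoxc6, expressed in the anterior trunk, was at 7.73 ± 2.09 and 6.57 ± 1.41 RPKM. The ranges of these 3 genes overlapped one another, and each of their libraries lay above every library of the other 35 members in the same population. In CD34hi libraries Hoxc9 at 4.68 ± 1.06 and Hoxc4 at 4.06 ± 0.949 RPKM came next, overlapping each other, and then Hoxd8 at 2.72 ± 0.448, Hoxa10 at 2.67 ± 0.665 and Hoxb2 at 2.65 ± 0.161 RPKM, which also overlapped. In CD34lo libraries the next was Hoxd8 at 4.58 ± 0.747 RPKM, followed by Hoxb2 at 3.86 ± 0.868, Hoxc4 at 3.71 ± 0.550 and Hoxc9 at 3.15 ± 0.276 RPKM, each overlapping its neighbour in the order.

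Of the 38 members, 26 passed the filter on low counts, with 63 to 4377 counts summed over the 6 libraries. The other 12 were not tested. Among these, Hoxb13, Hoxc12, Hoxc13, Hoxd1, Hoxd11, Hoxd12 and Hoxd13 had 0 counts in every library. These include the genes of digits and genital tubercle (Hoxd13), prostate (Hoxb13) and hair (Hoxc13). Hoxa11 had 1, 3 and 2 counts in the CD34hi libraries of pools 1, 2 and 3 and 0 in the CD34lo libraries. Hoxd10 had 2 counts in all, and Hoxa13 and Hoxb1 had 1 count each. Hoxb8 had 7, 7 and 12 counts in CD34hi and 8, 6 and 18 counts in CD34lo libraries, so the populations overlapped.

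**Figure D1:**
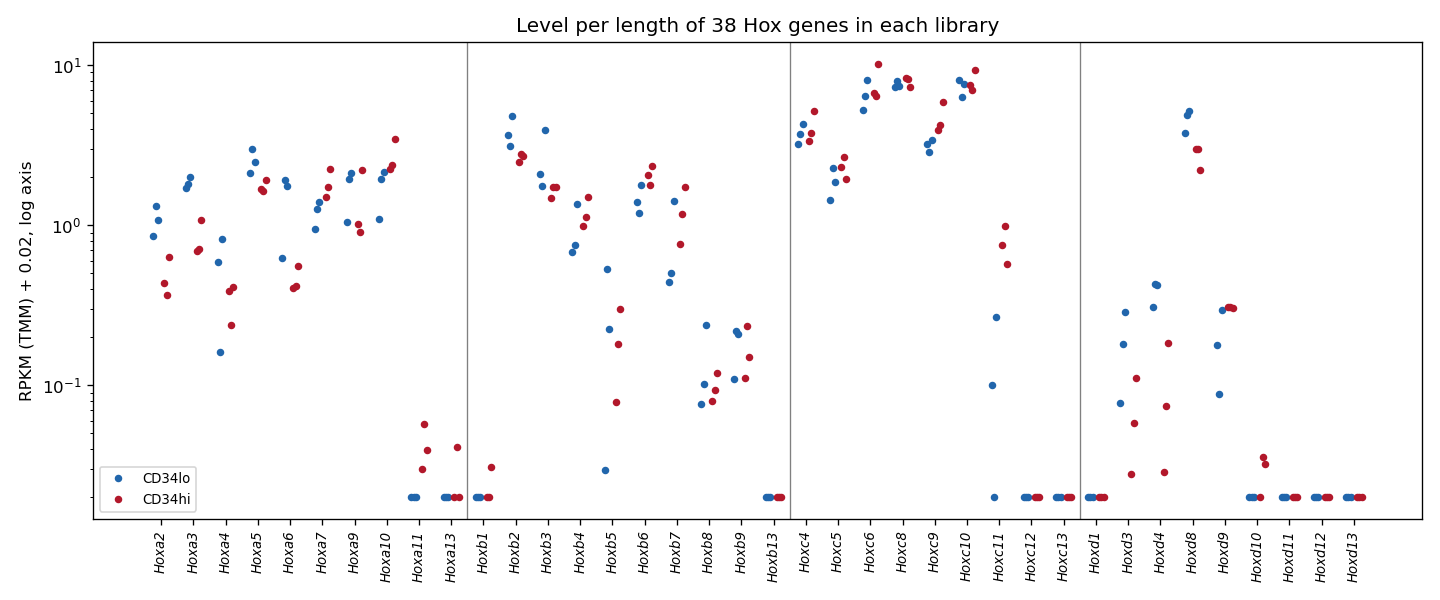
Level per length of each member in each library (vertical axis, TMM-scaled RPKM plus 0.02 on a log axis, so that a count of 0 sits at the bottom), with genes ordered by cluster and paralogue number and 3 points per population. Hoxc6, Hoxc8 and Hoxc10 are the highest in both populations, and 7 members have 0 counts in all 6 libraries.

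The comparison of CD34hi with CD34lo asked whether the 2 fibroblast populations sorted from the same mouse pools carry the same Hox pattern. The summed Hox level did not separate them, at 57.2 ± 7.52 RPKM in CD34hi and 57.5 ± 8.35 RPKM in CD34lo. With edgeR's quasi-likelihood test and Benjamini-Hochberg adjustment over 15219 genes, 6 of 26 members differed at an adjusted p under 0.05. Hoxc11 was higher in CD34hi, and Hoxa2, Hoxa3, Hoxa6, Hoxd4 and Hoxd8 were higher in CD34lo. Over all genes tested, 35.6% were called, 16.9% higher in CD34hi and 18.7% higher in CD34lo, so the members were not called more often than genes at large. The members' log2 fold changes (CD34hi minus CD34lo) were positive in 13 and negative in 13, with a median of -0.016 beside -0.0064 over all genes. In 13 of 26 members the CPM of the populations did not overlap, 5 higher in CD34hi and 8 higher in CD34lo, beside 50.1% of all genes. The calls rested on few libraries. Without pool 2 none of 27 tested members was called by edgeR (5 at an unadjusted p under 0.05), without pool 1 there were 2 calls and without pool 3 there were 4. Leaving out CD34hi library 1, 2 or 3 gave 3, 1 or 4 calls, and leaving out CD34lo library 1, 2 or 3 gave 4, 4 or 2 calls. These totals include Hoxc9, gained without CD34hi library 1, and Hoxb2 and Hoxb3, gained without CD34lo library 2. In each of these 2 cases 2 of the 6 calls were kept. Calls over all genes fell too, from 5411 to 3468, 3633 and 4817 without pool 1, 2 or 3. They fell to 4006 to 5236 without a single library. A loss of calls was thus not particular to the members, but its extent differed. Without pool 2 none of the 6 member calls remained, while 3633 calls remained over all genes.

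In paralogue groups 1 to 4, the members that passed the test were all higher in CD34lo. Of 9 tested, 3 were higher in CD34lo and none in CD34hi, a share near the 35.6% called over all genes. Of the 9, 7 had a negative log2 fold change, and the median was -0.66. Their summed level was 29.1 to 44.2 CPM in CD34lo and 21.5 to 29.8 CPM in CD34hi libraries, which overlapped slightly. The group's calls fell to 0 without pool 1 and without pool 2, with edgeR, and to 1 without CD34hi library 1, CD34hi library 2 or CD34lo library 3.

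Hoxa3 (gene 15400, chromosome 6, 52169062 to 52213067), required for thymus and parathyroid formation, was at 1.70, 1.77 and 2.69 CPM in the CD34hi libraries of pools 1, 2 and 3 and at 4.30, 4.53 and 5.01 CPM in the CD34lo libraries. Every CD34lo library was above every CD34hi library. Its log2 fold change was -1.16 ± 0.24 (SE), with an edgeR adjusted p of 0.00554. The adjusted p rose to 0.0526 without pool 1 and to 0.0512 without pool 2, and the call was kept without any single library. Hoxa2 (gene 15399, chromosome 6, 52162511 to 52164831), which sets hindbrain and branchial arch identity, was at 0.693, 0.580 and 1.04 CPM in CD34hi and at 1.40, 2.19 and 1.77 CPM in CD34lo. The populations did not overlap, with a log2 fold change of -1.20 ± 0.34 and an edgeR adjusted p of 0.0244. The Hoxa2 call was lost without pool 1 or pool 2 and without CD34hi library 1 or 2 or CD34lo library 2 or 3, at adjusted p of 0.0539 to 0.195.

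Hoxd4 (gene 15436, chromosome 2, 74721978 to 74729160), a gene of cervical vertebral patterning, had 1, 5 and 19 counts in the CD34hi libraries and 40, 29 and 32 counts in the CD34lo libraries. In CPM these were 0.0224, 0.138 and 0.419 against 0.738, 1.04 and 1.03, without overlap but with a wide spread in CD34hi. This gave a log2 fold change of -2.23 ± 0.71, with an edgeR adjusted p of 0.0370. The Hoxd4 call was lost without pool 1 or pool 2 and without each single library except CD34hi library 3, at adjusted p of 0.0619 to 0.179. Hoxd3, its neighbour, had 1, 4 and 12 counts in CD34hi and 9, 13 and 24 in CD34lo libraries. The populations overlapped, but within each pool the CD34lo library was higher. The log2 fold change of Hoxd3 was -1.74 ± 0.82 with an edgeR adjusted p of 0.135, and -1.91 with an adjusted p of 0.0336 when the pool was a block.

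Hoxb2, which acts in facial nerve development, and Hoxb3 gave log2 fold changes of -0.54 ± 0.20 and -0.66 ± 0.29, with edgeR adjusted p of 0.0678 and 0.111. Their CPM did not overlap. Hoxb2 was at 4.02, 4.53 and 4.41 CPM in CD34hi and 5.96, 5.07 and 7.84 CPM in CD34lo. Hoxb3 was at 5.41, 6.35 and 6.42 CPM in CD34hi and 7.69, 6.44 and 14.7 CPM in CD34lo, where the pool 3 library stood highest. Without CD34lo library 2 the edgeR adjusted p was 0.0333 for Hoxb2 and 0.0399 for Hoxb3, and limma-voom with the pool as a block gave 0.0410 and 0.0320. Hoxa4, Hoxb4 and Hoxc4 gave log2 fold changes of -0.64 ± 0.57, 0.40 ± 0.32 and 0.13 ± 0.21, and their populations overlapped. Hoxb4 and Hoxc4 were each higher in CD34hi within all 3 pools.

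In paralogue groups 5 to 8, 2 of 10 tested members were higher in CD34lo (18.7% over all genes) and none in CD34hi, with 6 positive and 4 negative log2 fold changes. Hoxd8 (gene 15437, chromosome 2, 74705489 to 74707307) was at 4.25, 4.22 and 3.13 CPM in CD34hi and at 5.31, 6.90 and 7.33 CPM in CD34lo libraries. The populations did not overlap. The log2 fold change was -0.75 ± 0.21, with an edgeR adjusted p of 0.0222. The Hoxd8 call was lost without pool 2 or pool 3 and without each single library except CD34lo library 1, at adjusted p of 0.0517 to 0.122. Hoxa6 (gene 15403, chromosome 6, 52206365 to 52208624) had 12, 10 and 17 counts in CD34hi and 23, 37 and 38 counts in CD34lo libraries. In CPM it was at 0.268, 0.276 and 0.375 against 0.424, 1.33 and 1.22, with the pool 1 CD34lo library near the CD34hi range. This gave a log2 fold change of -1.65 ± 0.51, with an edgeR adjusted p of 0.0346. The Hoxa6 call was lost with limma-voom (adjusted p 0.105), without pool 2 or pool 3 and without each single library except CD34lo library 1, at adjusted p of 0.0613 to 0.216.

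Hoxa5, which is needed for lung development, was at 3.11, 3.04 and 3.57 CPM in CD34hi and 3.95, 5.57 and 4.63 CPM in CD34lo. Its populations did not overlap, and the log2 fold change was -0.54 ± 0.21 with an edgeR adjusted p of 0.0728. Hoxa7, the HoxA gene after Hoxa6 towards the posterior end, lay in the other direction to Hoxa5 and Hoxa6. It was at 2.88, 3.37 and 4.37 CPM in CD34hi and 1.81, 2.41 and 2.70 CPM in CD34lo. Its log2 fold change was 0.63 ± 0.26 with an edgeR adjusted p of 0.0894, and 0.0504 with the pool as a block in edgeR, while limma-voom with the block gave 0.0475. Hoxb6 and Hoxb7 were each higher in CD34hi within all 3 pools but overlapped between pools, with log2 fold changes of 0.51 ± 0.25 and 0.67 ± 0.52. Hoxb5 was spread from 0.0184 to 0.971 CPM over the CD34lo libraries and from 0.112 to 0.529 CPM over the CD34hi libraries. Its log2 fold change of -0.43 ± 1.00 turned to 0.84 without pool 2, to 0.82 without CD34lo library 2 and to 0.70 with limma-voom.

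In paralogue groups 9 to 13, 1 of 7 tested members was higher in CD34hi (16.9% over all genes) and none in CD34lo, with 5 positive log2 fold changes and a median of 0.57. Hoxc11 (gene 109663, chromosome 15, 102954526 to 102956701), a lumbosacral and kidney patterning gene, had 30, 32 and 23 counts in CD34hi and 4, 0 and 7 counts in CD34lo libraries. These were 0.671, 0.883 and 0.507 CPM against 0.0738, 0 and 0.225 CPM, without overlap. This gave a log2 fold change of 2.76 ± 0.73, with an edgeR adjusted p of 0.0179, on counts near the floor in CD34lo. The Hoxc11 call was lost without pool 1 or pool 2, CD34hi library 2 or CD34lo library 1, at adjusted p of 0.0672 to 0.109.

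Hoxc9, a thoracic motor neuron patterning gene, was at 6.73, 7.26 and 10.1 CPM in CD34hi and 5.53, 4.89 and 5.82 CPM in CD34lo. The populations did not overlap. The log2 fold change was 0.57 ± 0.20 with an edgeR adjusted p of 0.0526, and 0.0309 with the pool as a block, and DESeq2 gave 0.0366. Hoxa10, which acts in uterine and posterior skeletal development, was at 6.95, 7.42 and 10.8 CPM in CD34hi and 3.38, 6.04 and 6.69 CPM in CD34lo, again without overlap. Its log2 fold change was 0.66 ± 0.28 with an edgeR adjusted p of 0.105, and 0.0166 with the pool as a block. Of the genes used in mammary growth, Hoxa9 was at 2.28, 2.01 and 4.98 CPM in CD34hi and 2.32, 4.35 and 4.79 CPM in CD34lo, with a log2 fold change of -0.29 ± 0.40 that turned to 0.048 without pool 2. Hoxb9 gave -0.11 ± 0.52, which turned to values of 0.061 to 0.17 without pool 3 or without CD34hi library 1, CD34lo library 2 or CD34lo library 3, and Hoxd9 gave 0.76 ± 0.49. With the pool as a block, 9 of 26 members were called, the 6 above and Hoxa10, Hoxc9 and Hoxd3, beside 40.5% of all genes. The count higher in CD34hi then went from 1 to 3.

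**Figure D2:**
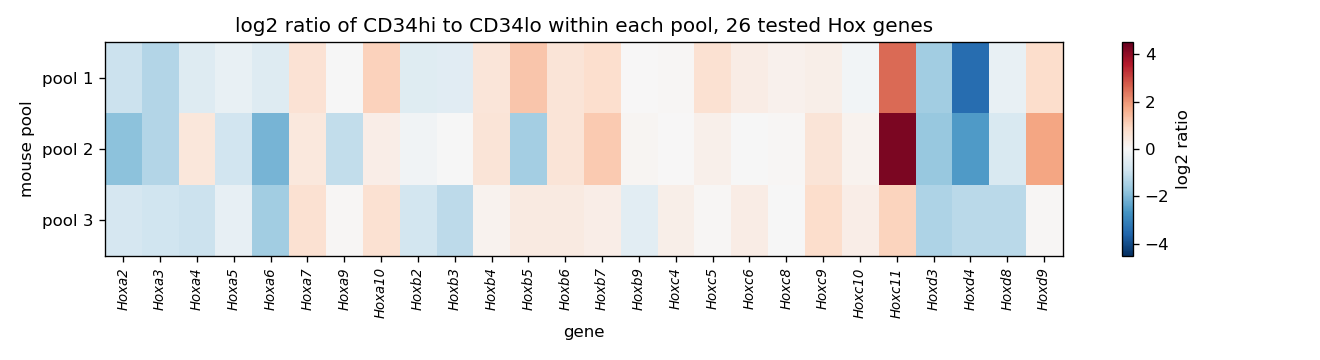
Colour gives the log2 ratio of CD34hi to CD34lo CPM within each of the 3 mouse pools (rows, log2 CPM with a prior count of 2), for the 26 tested members (columns, by cluster and paralogue number). Hoxa2, Hoxa3, Hoxa5, Hoxa6, Hoxb2, Hoxb3, Hoxd3, Hoxd4 and Hoxd8 are below 0 in all 3 pools. Hoxa7, Hoxa10, Hoxb4, Hoxb6, Hoxb7, Hoxc4, Hoxc5, Hoxc9, Hoxc11 and Hoxd9 are above 0 in all 3 pools.

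The 3 members with the highest RPKM in both populations, Hoxc8, Hoxc10 and Hoxc6, gave small log2 fold changes. Hoxc4 and Hoxc5, at lower levels, are given beside them. Hoxc9, which came next in CD34hi and is described above, gave a larger log2 fold change of 0.57 ± 0.20. Hoxc8 was at 19.7, 19.5 and 17.3 CPM in CD34hi and 17.2, 18.9 and 17.6 CPM in CD34lo libraries, which overlapped. Its log2 fold change was 0.074 ± 0.12, with a 95% interval of -0.20 to 0.35. Hoxc10 gave 0.11 ± 0.16, with an interval of -0.26 to 0.48, and turned to -0.018 without CD34hi library 3. Hoxc6 gave 0.24 ± 0.23, with an interval of -0.28 to 0.76. Hoxc4 had an interval of -0.34 to 0.60 and turned to -0.068 without CD34hi library 3, and Hoxc5 had an interval of -0.18 to 0.83. These intervals leave room for moderate changes in either direction, and for Hoxc8 exclude changes as large as that of Hoxd8.

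By cluster the numbers were too small to read against the 35.6% of all genes called. In HoxA, 3 of 8 tested members were higher in CD34lo and none in CD34hi, with a median log2 fold change of -0.59. In HoxB, none of 7 was called by edgeR (1 at an unadjusted p under 0.05, 0 by limma-voom and 0 by DESeq2), with a median of -0.11. In HoxC, 1 of 7 was called, all 7 log2 fold changes were positive, and the median was 0.24. In HoxD, 2 of 4 were called higher in CD34lo, with a median of -1.24. Leaving out pool 2 left no call in any cluster by edgeR. Leaving out CD34lo library 2 gave 1 in HoxA, 2 in HoxB, 1 in HoxC and 0 in HoxD, and both HoxB calls were gained.

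As a share of the summed Hox RPKM, HoxC made up 62.8, 61.7 and 61.1% in the CD34hi libraries of pools 1, 2 and 3 and 57.1, 52.5 and 49.4% in the CD34lo libraries. HoxD made up 6.31, 6.25 and 4.17% in CD34hi and 8.49, 9.77 and 9.17% in CD34lo. Neither share overlapped between the populations, while those of HoxA (16.7 ± 1.87% in CD34hi and 20.6 ± 2.88% in CD34lo) and HoxB (15.9 ± 0.741% and 17.3 ± 3.34%) did. The summed level of HoxC itself overlapped, at 32.7 to 40.3 RPKM in CD34hi and 28.5 to 32.8 RPKM in CD34lo. That of HoxD did not, at 2.75 to 3.36 and 4.23 to 6.09 RPKM. Inside HoxA, groups 1 to 4 made up 17.7, 15.1 and 16.7% of the cluster in CD34hi and 35.0, 24.5 and 28.0% in CD34lo, and groups 9 to 13 made up 39.4, 39.8 and 45.6% in CD34hi and 23.8, 29.1 and 31.0% in CD34lo. Inside HoxB, groups 1 to 4 made up 62.0, 62.5 and 56.5% in CD34hi and 76.7, 69.5 and 72.7% in CD34lo. These HoxA and HoxB shares did not overlap between the populations. Inside HoxC, groups 1 to 4 made up 11.4 ± 1.30% in CD34hi and 12.2 ± 0.966% in CD34lo, which overlapped. The shares are ratios within a library, and with 3 libraries against 3 an exact two-sided permutation test cannot give a p below 0.1, so none was run.

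**Figure D3:**
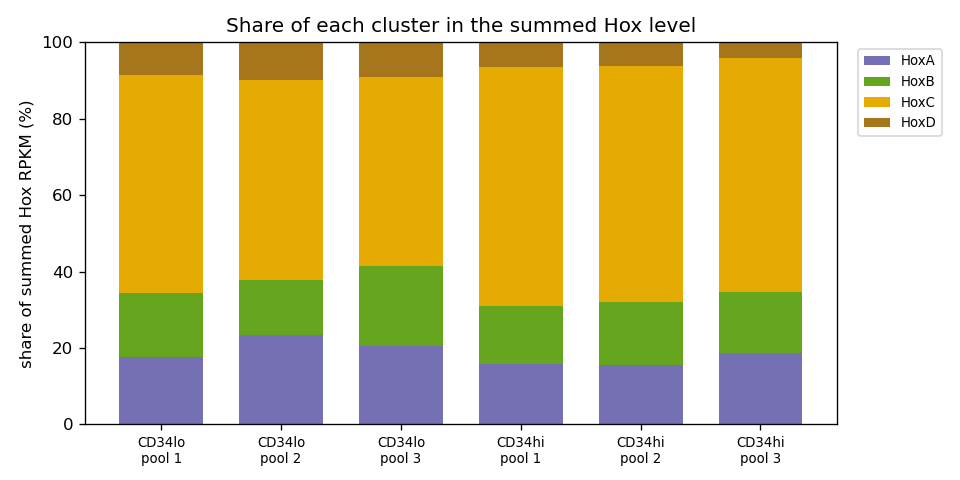
Share of each cluster in the summed RPKM of the 38 members (stacked bars, percent) in each of the 6 libraries. HoxC takes 49.4 to 57.1% in the CD34lo and 61.1 to 62.8% in the CD34hi libraries.

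The log2 fold change was set against the paralogue number, which follows the order of genes in a cluster. Over the 26 tested members Pearson's r between paralogue number and log2 fold change was 0.634 and Spearman's rho was 0.632. Within clusters r was 0.692 in HoxA (8 genes), 0.506 in HoxB (7 genes), 0.582 in HoxC (7 genes) and 0.897 in HoxD (4 genes), with rho of 0.738, 0.679, 0.286 and 0.800. Genes near the floor weigh on these values. In HoxC, Hoxc11 stood apart at 2.76, on 4, 0 and 7 CD34lo counts, while the others ran from 0.074 to 0.57. In HoxD, Hoxd3 and Hoxd4 each had 1 count in CD34hi library 1. No correlation was computed without these genes. The order was not strict, since Hoxb4 and Hoxc4 were above 0 and Hoxa9 and Hoxb9 below 0. This is a description across genes, which share the 6 libraries and sit in clusters, and it carries no p. The annotated spans of Hoxa3, Hoxa4, Hoxa5 and Hoxa6 overlap in the table, as do those of Hoxd3 and Hoxd4, so reads may be split between them and their values are uncertain to that extent.

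**Figure D4:**
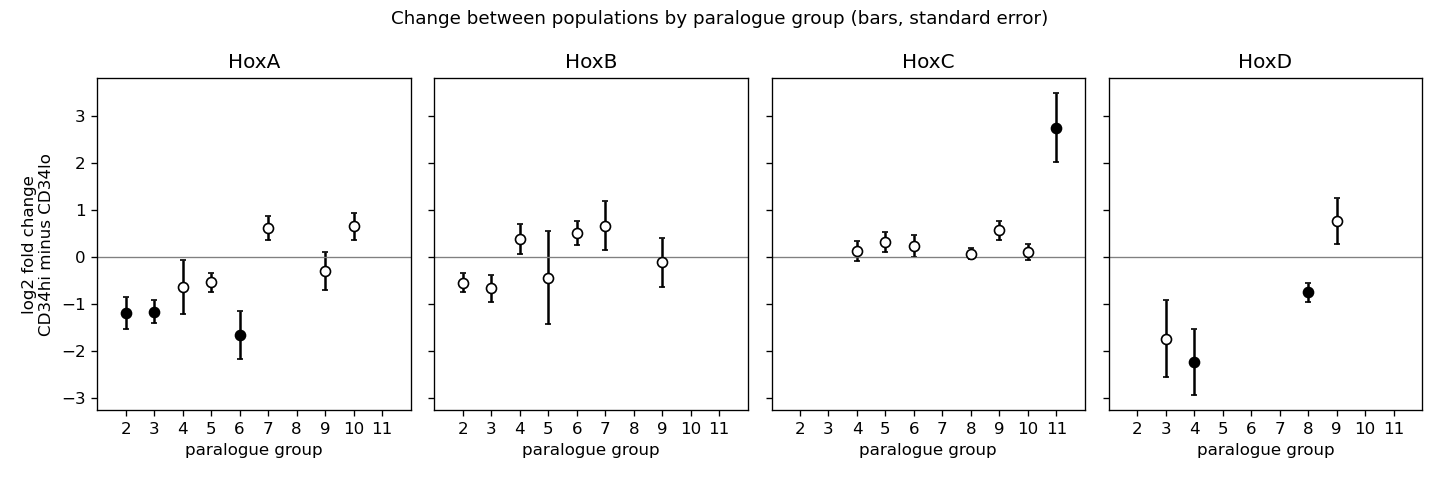
Log2 fold change (CD34hi minus CD34lo, vertical axis) of each tested member against its paralogue number (horizontal axis), with 1 panel per cluster and bars of 1 SE from edgeR. Filled points have an adjusted p under 0.05, and those below 0 are Hoxa2, Hoxa3, Hoxa6, Hoxd4 and Hoxd8.

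Hox proteins bind DNA with cofactors of the TALE homeodomain class (Pbx, Meis and Pknox). Of 8 such genes tested, 2 were called, beside 35.6% of all genes. Pbx4 was higher in CD34hi, at 1.39, 0.966 and 1.41 CPM against 0.535, 0.108 and 0.386 CPM, with a log2 fold change of 1.80 ± 0.50 and an edgeR adjusted p of 0.0220. The Pbx4 call was lost without pool 3, CD34hi library 1 or 3 or CD34lo library 3, at adjusted p of 0.0538 to 0.109. Meis2 was higher in CD34lo, at 46.6, 35.8 and 51.9 CPM against 32.4, 31.4 and 31.3 CPM, with a log2 fold change of -0.50 ± 0.15 and an edgeR adjusted p of 0.0271. The Meis2 call was lost without pool 1 or pool 3 and without each single library except CD34lo library 2, at adjusted p of 0.0595 to 0.164. Meis1 gave a log2 fold change of -0.10 ± 0.14. Pknox1 gave -0.40 ± 0.16 with an edgeR adjusted p of 0.0833, and 0.0392 with the pool as a block.

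Polycomb complexes hold Hox genes silent and trithorax (Kmt2) complexes keep them active. Of 26 such genes tested, 3 were higher in CD34lo (18.7% over all genes), none was higher in CD34hi, and the median log2 fold change was -0.066. Jarid2, an accessory subunit of Polycomb repressive complex 2, was at 27.9, 29.0 and 32.4 CPM in CD34hi and 96.4, 67.5 and 85.7 CPM in CD34lo. Its log2 fold change was -1.48 ± 0.15, with an edgeR adjusted p of 0.000108, and the call was kept in every alternative. Cbx8, a chromobox subunit of Polycomb repressive complex 1, gave -1.33 ± 0.30 with an edgeR adjusted p of 0.00862, and its call was lost without pool 1 (0.0849). Ezh2, the histone H3 lysine 27 methyltransferase, gave -0.40 ± 0.13 with an edgeR adjusted p of 0.0379, which was lost without any 1 pool and without each single library except CD34lo library 3, at 0.0540 to 0.297, and without the filter on low counts (0.0701). The other core subunits Suz12, Eed and Ezh1 gave -0.16 ± 0.12, 0.21 ± 0.15 and 0.10 ± 0.17, and Kmt2a gave -0.051 ± 0.12. With the pool as a block, 7 of the 26 were called, beside 40.5% of all genes.

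Most of the listed and tested transcription factors of limb, trunk and skin position outside the Hox clusters differed between the populations. Of 22 in the list, 14 were tested and 12 were called, 5 higher in CD34hi and 7 higher in CD34lo, beside 6 of 26 Hox members and 35.6% of all genes. This list was chosen with earlier results of these data known, so its share called is a description and no independent comparison. Tbx5, the forelimb factor, was at 18.8, 19.3 and 20.8 CPM in CD34hi and 1.94, 3.16 and 2.60 CPM in CD34lo, with a log2 fold change of 2.95 ± 0.20 and an edgeR adjusted p of 1.32e-05. Pitx1, the hindlimb factor, was at 3.09, 3.12 and 2.32 CPM against 0.129, 0.216 and 0.0643 CPM, with a log2 fold change of 4.38 ± 0.41. Lmx1b and En1, of dorsal and ventral limb identity, gave 3.15 ± 0.45 and 1.10 ± 0.14, and Emx2 gave 2.19 ± 0.22. Higher in CD34lo were Tbx3, needed to form the mammary placode, at 64.3, 44.1 and 45.3 CPM against 7.49, 8.44 and 7.23 CPM (log2 fold change -2.73 ± 0.18), Alx4 (-3.18 ± 0.24) and Meox1 (-3.55 ± 0.40). Meox2 (-1.98 ± 0.18), Msx1 (-1.03 ± 0.18), Shox2 (-0.69 ± 0.13) and Tbx18 (-0.65 ± 0.22) were also higher in CD34lo. Tbx15 and Tbx4 were not called, at -0.028 ± 0.13 and 0.042 ± 0.60. The calls of Tbx18 and Shox2 were lost under some omissions, Shox2 without pool 2 (edgeR adjusted p 0.0604) and Tbx18 without pool 1 or pool 2, CD34hi library 1 or 2 or CD34lo library 1 or 3 (0.0582 to 0.156).

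**Figure D5:**
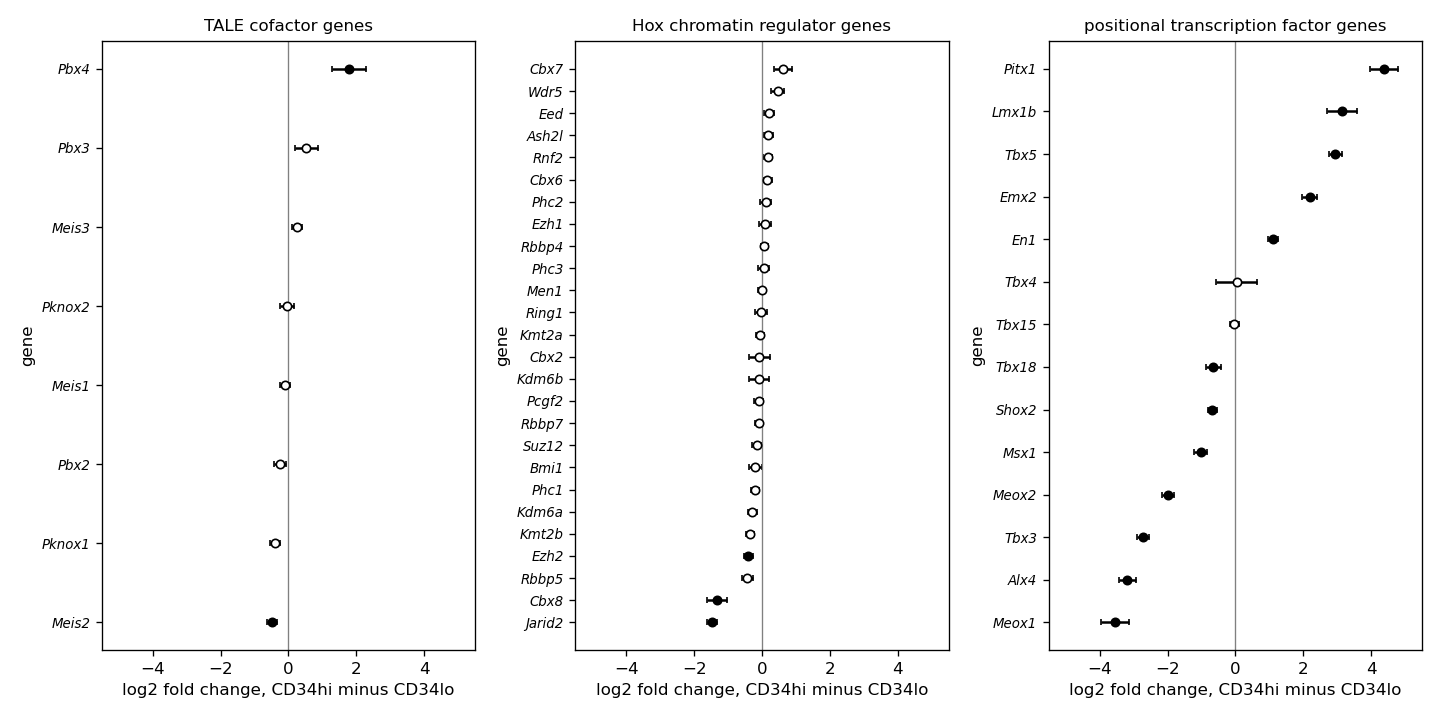
Log2 fold change (CD34hi minus CD34lo, horizontal axis, bars of 1 SE from edgeR) of each tested gene in 3 lists. Filled points have an adjusted p under 0.05, which are 2 of 8 TALE cofactor genes, 3 of 26 chromatin regulator genes and 12 of 14 positional transcription factor genes.

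Noncoding genes within the clusters were mostly near 0. Of 10 in the list, only Hoxaas3, which overlaps Hoxa3, Hoxa5 and Hoxa6 on the opposite strand, was tested. It gave a log2 fold change of -0.81 with an edgeR adjusted p of 0.379, and its direction turned to 0.36 without pool 2 and to 0.13 without CD34lo library 2. Since the library kit does not mark strand, reads of Hoxaas3 and of these members cannot be told apart where they overlap. Of other noncoding genes that overlap Hoxa3, gene 100503966 gave a log2 fold change of -0.72 (edgeR adjusted p 0.214) and 5730596B20Rik gave 0.056 (0.957). Hoxa11os and Hoxd3os1 had 4 counts each, Mir615, inside Hoxc5, had 1, and Mir10b, inside the spans of Hoxd3 and Hoxd4, had 0. Hotair, a noncoding gene of the HoxC cluster, had 20 counts in all 6 libraries together.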

How the data were processed

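RNA was sequenced from FACS-sorted CD34hi and CD34lo fibroblasts of 3 mouse pools. The authors deposited 1 table of raw read counts per gene (27179 genes, 6 libraries), which per their methods came from reads aligned to GRCm38/mm10 and counted with Rsubread. The annotation release, strand setting and handling of reads that fit several genes are not given in the sources used here. The deposited table also gives each gene's coordinates and length. All values of the authors' columns were assigned to libraries by the labels.

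Counts were analysed with edgeR 4.0.16 (glmQLFit and glmQLFTest) in R 4.3.3, after filterByExpr by population and TMM normalization, with Benjamini-Hochberg adjustment over the 15219 genes kept. SE was taken as the size of the log2 fold change over the square root of F, and intervals are at 95%. RPKM is the TMM-scaled CPM per kilobase of the deposited length. TMM factors were 0.967 to 1.04 and the common biological coefficient of variation was 19.7%. The fitting was tested on simulated data first. Replicates of a population differed beyond sampling noise (chi-square over degrees of freedom, 23.1 to 111).

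Both populations of a pool came from the same mice, so the numbers pair the libraries. Deviations from the population means correlated at 0.279, 0.0844 and 0.243 within pools 1, 2 and 3. Between libraries of different pools they correlated at -0.279 to 0.0681, below each value within a pool. In each population these deviations cancel over its libraries, so a positive value within a pool lowers those between pools. The contrast is therefore partly built in. The main test has no block, and the block is an alternative. Other alternatives were limma-voom (limma 3.58.1), DESeq2 1.42.0, scaling by RLE or by the upper quartile, leaving the filter off, at least 10 counts in every library, each pool and library left out, an adjusted p under 0.01 and a minimum log2 fold change of 1 in size. When a library is left out, its arm keeps 2 samples.

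Symbols were matched by gene ID for 25275 genes. The members and the lists of cofactors, chromatin regulators, positional factors, noncoding genes and markers were chosen with earlier results of these data known. The text names every member, the genes of a list that were called or stand beside one described, Cd34, and noncoding genes that overlap a member. Some genes are not reported here and were left out of these lists.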

Additional observations from a re-analysis of the deposited data

How the results depend on the processing

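Of 435 comparisons of a member's log2 fold change with an alternative (26 genes), 376 kept direction and side of the threshold, 34 lost the call, 15 gained one and 10 changed direction. For 18 other named genes, the counts were 271, 29, 0 and 2 of 302. The cause of these changes was not tested.

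With limma-voom, calls in groups 5 to 8 went from 2 to 1. With DESeq2 and without the filter, calls higher in CD34hi, in HoxC and in groups 9 to 13 each went from 1 to 2. With upper-quartile normalization 1 HoxB member was called, and over all genes the share of calls higher in CD34hi fell from 47.5% to 42.2%. With at least 10 counts in every library, Hoxc11 and Hoxd4 were not tested, which left 0 calls higher in CD34hi, in HoxC and in groups 9 to 13, 1 in HoxD and 1 among cofactors. RLE normalization changed no count of calls by over 1.5 times.

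With the replicate block in edgeR, calls higher in CD34hi rose to 3, in HoxC to 2, in groups 9 to 13 to 3 and among chromatin regulators to 7. With the replicate block in limma-voom, 4 members were called higher in CD34hi and 8 in CD34lo, with 5 in HoxA, 2 in HoxB, 2 in HoxC, 6 in groups 1 to 4, 3 in groups 9 to 13 and 7 chromatin regulators. Calls over all genes rose as well, from 5411 in the main fit to 6161 with the block in edgeR and 6418 with the block in limma-voom. The block lost no call of a member.

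At an adjusted p under 0.01, Hoxa3 was the member left. Calls were 0 higher in CD34hi, 1 higher in CD34lo, 1 in HoxA, 0 in HoxC, 0 in HoxD, 1 in groups 1 to 4, 0 in groups 5 to 8, 0 in groups 9 to 13, 0 among cofactors, 2 among chromatin regulators and 3444 over all genes. With a minimum log2 fold change of 1 in size there was 1 call in HoxD, 1 in groups 5 to 8, 1 among cofactors, 2 among chromatin regulators and 2986 over all genes.

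Leaving out a pool or a library gave 0 to 2 members higher in CD34hi and 0 to 4 higher in CD34lo. By cluster the calls were 0 to 3 in HoxA, 0 to 2 in HoxB, 0 to 2 in HoxC and 0 to 1 in HoxD, and by position 0 to 3 in groups 1 to 4, 0 to 2 in groups 5 to 8 and 0 to 2 in groups 9 to 13. Among cofactors they were 0 to 2, among chromatin regulators 1 to 4, among positional factors 10 to 12 and over all genes 3468 to 5236.

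Direction changed for Hoxb5 (log2 fold change 0.70 with limma-voom) and in leave-outs, where the log2 fold change ran from -1.12 to 0.84 for Hoxb5, -0.81 to 0.048 for Hoxa9, -0.48 to 0.17 for Hoxb9, -0.068 to 0.29 for Hoxc4, -0.018 to 0.26 for Hoxc10 and -1.46 to 0.36 for Hoxaas3. Depth limits Hoxc11, Hoxd3, Hoxd4 and Hoxb5, each of which had a library below the limit of 3 counts (0.0572 to 0.104 CPM).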

Other observations

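Some noncoding genes of the clusters lay outside the lists above and were chosen after their values were seen. Mira (gene 100736249, chromosome 6, 52214491 to 52215288 on the minus strand), which lies between the starts of Hoxa6 and Hoxa7, was at 2.86, 2.93 and 3.00 CPM in the CD34hi libraries of pools 1, 2 and 3 and at 0.959, 1.65 and 1.93 CPM in the CD34lo libraries. The populations did not overlap, and the log2 fold change was 0.97 with an edgeR adjusted p of 0.0316. Hoxa7 lay in the same direction and Hoxa6 in the other. Gm53, in the HoxB cluster, was at 0 counts in all CD34hi libraries and at 0.314, 0.108 and 0.0321 CPM in the CD34lo libraries, which was too low to be tested.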
